A study of Homo sapiens with 10 samples.

Results

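The histone genes were 57 of 19775 genes with a probe set of their own, and were read from 81 of the 54675 probe sets of the array: those annotated to exactly 1 gene with a histone symbol, antisense transcripts left out. They fall, by symbol, into 49 probe sets of 43 replication-dependent histone genes, 29 probe sets of 11 variant histone genes and 3 probe sets of 3 histone pseudogenes. The choice used annotation only and no measured value. RNA came from RWPE-1, immortalised human prostate epithelial cells that form no tumours, transduced with MSCV retroviral vectors and grown as stable clones under normal conditions. All 10 Affymetrix HG-U133 Plus 2.0 arrays carry RNA of cells that express BirA, a bacterial biotin ligase: 3 arrays are labelled BirA and ERG, 4 BirA and ETV1, and 3, the controls, BirA alone. ERG and ETV1 are ETS transcription factors that gene fusions activate in prostate cancer, and the comparisons ask how the readings of histone mRNAs differ where each is overexpressed. The design text counts 3 biological replicates, while the labels list 4 ETV1 arrays, and neither says whether replicates were separate clones or cultures, so the p-values measure only the spread between these arrays.

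Histones are the proteins around which DNA is wound: H2A, H2B, H3 and H4 form the nucleosome core, and H1 binds the linker DNA. Replication-dependent histones are made in S phase from clustered genes, and their mRNAs typically end in a stem loop bound by SLBP instead of a poly(A) tail. Variant histones such as H2A.Z, H2A.X, H3.3 and macroH2A come from single genes outside those clusters, are made through the cell cycle from mostly polyadenylated mRNAs, and replace their replication-dependent counterparts at particular sites. The standard Affymetrix labelling named by the labels primes on poly(A) tails, so for replication-dependent genes the arrays read mainly whatever polyadenylated or internally primed transcript is present. Replication-dependent paralogs are also near identical in sequence, and 29 of the 81 probe sets carry an ID suffix (_s, _x or _a) that marks a design matching several transcripts, so a reading cannot always be assigned to 1 gene.

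Arrays labelled ERG differed widely from the other 7, and their label was not settled by their own gene. Of 4 ERG probe sets, 1 rose on them against control (1.05, SE 0.22, adjusted p = 9.6e-04), 1 fell (-2.99, SE 0.13, adjusted p = 3.3e-09) and 2 did not pass, so each direction drawn from these arrays below rests on the label alone. On the ETV1 arrays 3 of 5 ETV1 probe sets rose against control, by 2.67 to 3.67. Median intensity over all probe sets was 48.5 to 52.6 on the arrays labelled ERG, 70.9 to 75.5 on the ETV1 arrays and 71.4 to 73.4 on the control arrays. Over all probe sets, arrays labelled ERG correlated with control arrays at Spearman's rho of 0.766 to 0.811, and ETV1 arrays with control arrays at 0.956 to 0.969. The ratio of the 3′ to the 5′ ACTB probe set was 2.94 ± 0.171 on arrays labelled ERG, 1.26 ± 0.0288 on ETV1 and 1.38 ± 0.0243 on control arrays (SD, n = 3, 4 and 3). The same ratio for GAPDH was 1.005 ± 0.0516 on arrays labelled ERG, 1.02 ± 0.0253 on ETV1 and 0.916 ± 0.0202 on control arrays. The 3 probe sets of 18S ribosomal RNA, which has no poly(A) tail, did not order the groups alike. The middle one read 1138 ± 114 on the arrays labelled ERG, 199.6 ± 47.5 on the ETV1 arrays and 70.5 ± 20.6 on the control arrays, and the 5′ one 961 ± 135 on ERG-labelled, 633 ± 253 on ETV1 and 121 ± 39.7 on control arrays, whereas the 3′ one read 644 ± 133.4 on ERG-labelled, 644 ± 228 on ETV1 and 609 ± 207 on control arrays. Readings of 2 other non-polyadenylated RNAs, RPPH1 and SCARNA2, passed in no comparison. Marker genes were summed by the brightest probe set of each. The epithelial keratins were bright on every array. The 4 basal markers came to 22493 to 23759.9 on arrays labelled ERG, 19531 to 21419.7 on ETV1 and 15343 to 16671 on control arrays. Among them KRT5 rose (1.11) and ITGB4 fell (-0.49) against control on the arrays labelled ERG, and 0 of 4 passed in ETV1 cells. The general epithelial markers summed to 19414 to 21168 on ERG-labelled, 9479 to 12463 on ETV1 and 13552 to 16947 on control arrays. Luminal markers summed to 138 to 191 on ERG-labelled, 607 to 665 on ETV1 and 583 to 764 on control arrays, and those of fibroblasts to 192 to 285 on ERG-labelled, 1047 to 1082 on ETV1 and 906 to 1139 on control arrays. The endothelial sum was 169.7 to 193 on ERG-labelled, 1260.2 to 1397 on ETV1 and 1369.9 to 1562 on control arrays and came almost wholly from 1 PECAM1 probe set, with CDH5 at most 17.5 on every array. Other probe sets of these genes did not all fall on the arrays labelled ERG: against control 2 of 5 for COL1A1 rose and 1 fell, 1 of 7 for DCN rose and 2 fell, 2 of 3 for COL1A2 rose and 0 fell, and 1 of 5 for PECAM1 rose and 1 fell. Leukocyte and neuroendocrine markers summed to at most 106 and 60.7 on ERG-labelled, 234 and 433 on ETV1 and 279.9 and 315 on control arrays. PTPRC, CD14, CDH5, COL1A2, PDGFRA and SYP lay above the array's median on no array. The part of these differences in the histone results was not tested. In bulk RNA, fewer cells that express a gene and less RNA per cell cannot be told apart.

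Promoters of 51 of the 57 histone genes were found in RefSeq (GRCh38.p14) and searched on both strands over the 250 bases upstream of the annotated start. The octamer ATTTGCAT, an element known from histone H2B promoters, was present in 16 of 40 replication-dependent promoters, all of them H2A (6 of 8) or H2B (10 of 13), in 0 of 11 variant promoters and in 1.66% of all 27305 promoters. The CCAAT box (CCAAT) was found in 35 of 40 replication-dependent and 8 of 11 variant promoters, against 33.0% of all. TATAAA, the TATA box, was found in 27 of 40 and 4 of 11, against 11.1% of all. The ETS site CCGGAAGT is a strong form of the sequence that ERG and ETV1 bind. It was found in 0 of 51 histone promoters and in 3.64% of all, a share at which few of 51 would match. Other forms of the site were not searched. A match describes these letters only, and where the windows of neighbouring genes overlap, the same letters can count for each. Shown first are the promoters of H2AZ1 and H2AX, variant genes whose readings were lower in ETV1 cells, with CCAAT or its reverse complement in capitals. They lie at chr4:99950276-99950525 and chr11:119095466-119095715, both on the minus strand, and are written 5′ to 3′ along the gene.
H2AZ1: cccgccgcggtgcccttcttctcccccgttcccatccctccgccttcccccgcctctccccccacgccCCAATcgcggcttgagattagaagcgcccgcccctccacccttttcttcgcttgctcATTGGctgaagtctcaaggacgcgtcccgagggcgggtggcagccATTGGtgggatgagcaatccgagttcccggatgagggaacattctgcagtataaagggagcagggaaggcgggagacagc
H2AX: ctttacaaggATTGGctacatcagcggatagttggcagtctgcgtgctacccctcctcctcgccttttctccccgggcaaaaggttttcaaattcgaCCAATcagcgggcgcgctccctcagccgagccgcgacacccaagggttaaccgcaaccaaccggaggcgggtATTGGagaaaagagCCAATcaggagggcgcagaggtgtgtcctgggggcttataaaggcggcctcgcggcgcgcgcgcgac
Next are 3 replication-dependent genes on which the results below turn: H2BC12 (chr6:27146859-27147108, minus strand), H2BC21 (chr1:149886683-149886932, minus strand) and H2AC6 (chr6:26123922-26124171, plus strand). Capitals mark the octamer or its reverse complement.
H2BC12: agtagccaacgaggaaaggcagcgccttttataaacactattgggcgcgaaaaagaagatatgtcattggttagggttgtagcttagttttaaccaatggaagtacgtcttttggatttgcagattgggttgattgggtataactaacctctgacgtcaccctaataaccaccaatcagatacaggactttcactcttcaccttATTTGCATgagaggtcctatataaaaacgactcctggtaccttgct
H2BC21: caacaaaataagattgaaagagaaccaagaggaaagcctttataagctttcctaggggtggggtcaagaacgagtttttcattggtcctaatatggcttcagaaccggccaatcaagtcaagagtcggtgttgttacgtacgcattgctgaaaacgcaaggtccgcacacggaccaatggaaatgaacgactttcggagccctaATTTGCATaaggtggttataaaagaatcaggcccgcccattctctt
H2AC6: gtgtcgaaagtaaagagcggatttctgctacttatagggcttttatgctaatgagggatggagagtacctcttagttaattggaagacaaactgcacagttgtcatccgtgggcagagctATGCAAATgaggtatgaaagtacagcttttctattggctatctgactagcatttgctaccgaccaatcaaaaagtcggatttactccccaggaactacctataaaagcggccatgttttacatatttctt

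Of 29 variant probe sets, 19 lay above their array's median intensity on all 10 arrays and 5 on none. Of 49 replication-dependent probe sets, 15 lay above it on all 10 and 15 on none, and 28 had a mean at or below that of the median probe set. By group, 26 replication-dependent probe sets were above the array's median on all 3 arrays labelled ERG. On all 4 ETV1 arrays 19 were so, and on all 3 control arrays 19. Over all 54613 probe sets the counts were 24679 for ERG-labelled, 25326 for ETV1 and 25391 for control arrays. As given above, the median was lower on the arrays labelled ERG, so this cut-off differed by group. The levels below are linear intensities as deposited, given in the order of replicates A, B, C (and D for ETV1). Differences are on the scale of log2(intensity + 16), which understates changes of dim probe sets, and a probe set rose or fell where limma gave a Benjamini-Hochberg adjusted p below 0.05 over all 54613 probe sets that are no array controls. The heat map of all 81 probe sets shows the arrays labelled ERG as a block of raised H1, H2A and H2B readings, and the ETV1 arrays as close to control outside the variants.

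**Figure D1:**
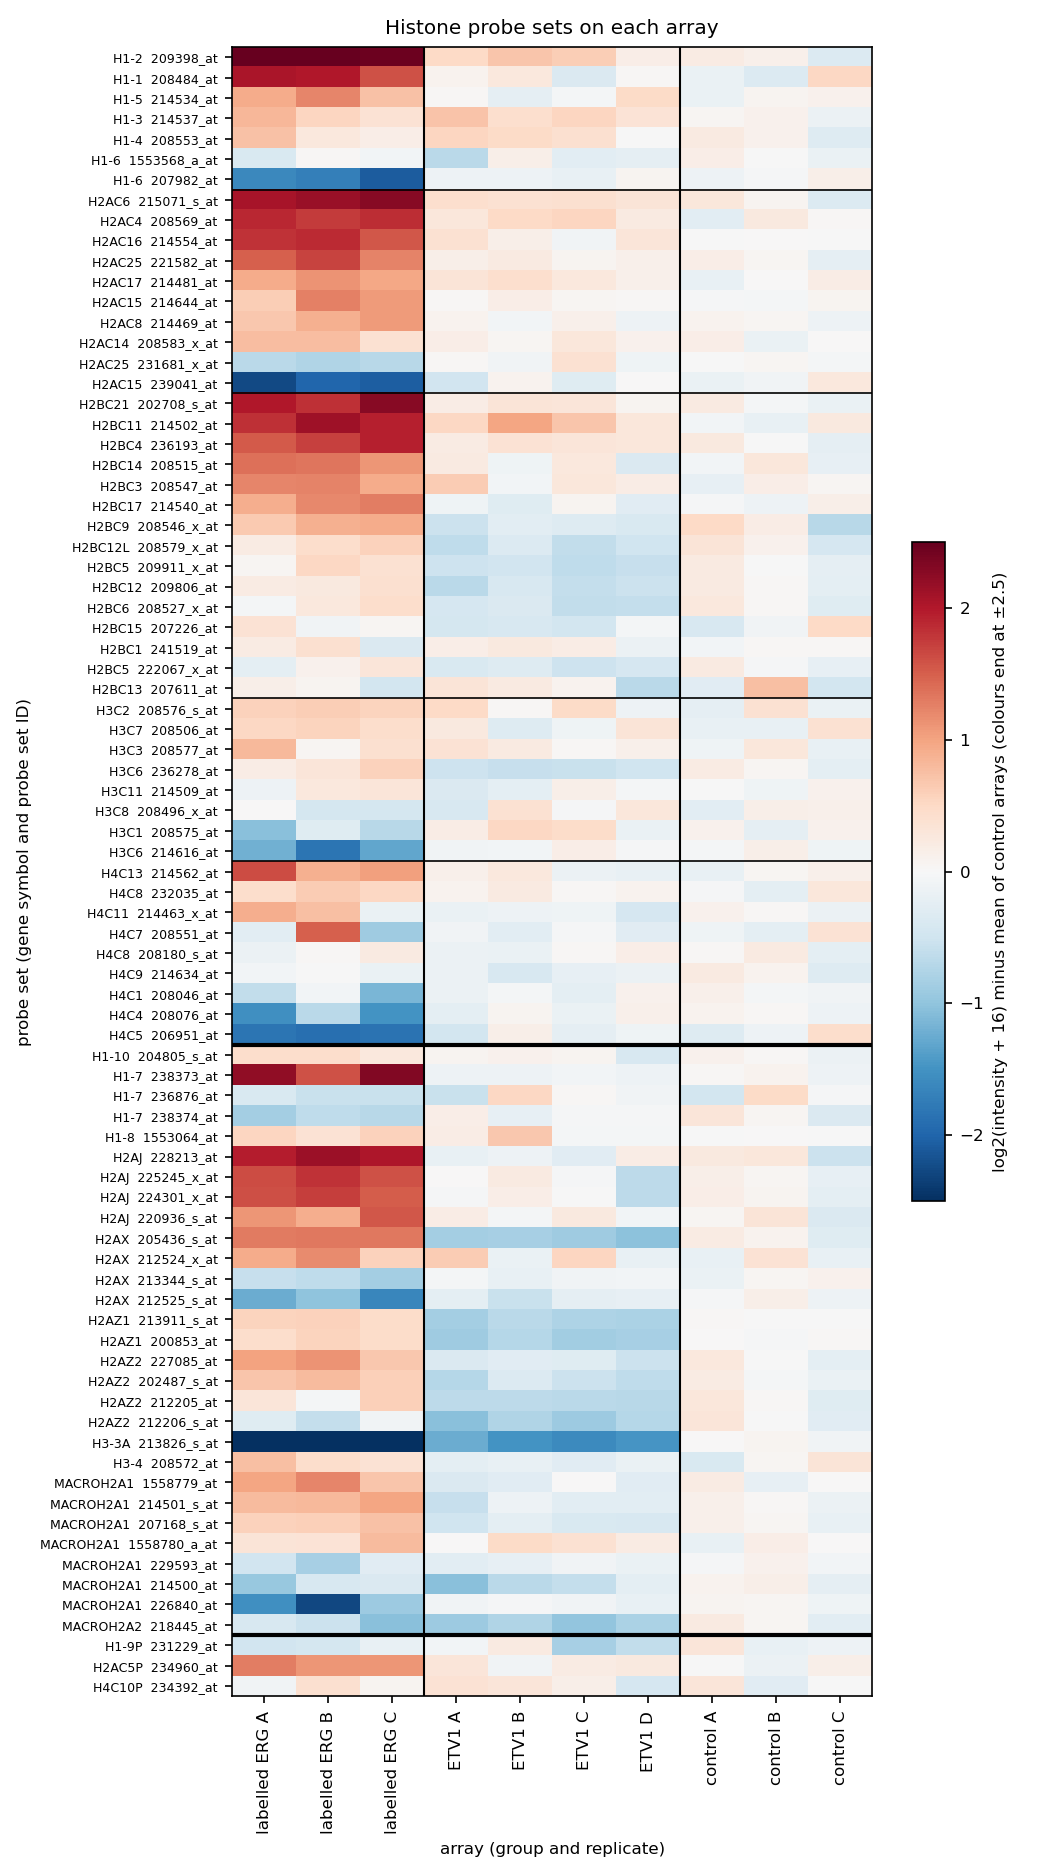
Each row is 1 histone probe set and each column 1 array (3 labelled ERG, 4 ETV1, 3 control), coloured by log2(intensity + 16) minus the mean of the control arrays, with colours ending at ±2.5. Heavy lines part replication-dependent, variant and pseudogene probe sets, and thin lines part the replication-dependent H1, H2A, H2B, H3 and H4 families; replication-dependent H2A rows are red on the arrays labelled ERG in 8 of 10 probe sets.

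In ETV1 cells at least 1 probe set each of H2AZ1, H2AZ2, H2AX, MACROH2A2 and H3-3A read lower than in control cells. By contrast, few replication-dependent histone probe sets passed. Across all 81 histone probe sets 1 rose and 11 fell, that is 13.6% lower, against a background of 4.58% higher and 4.93% lower over all probe sets. The falls were uneven: 8 of 29 variant probe sets fell (27.6%) and 0 rose, while 3 of 49 replication-dependent probe sets fell (6.12%) and 1 rose, shares near the background. Split by brightness, 3 of the 21 replication-dependent probe sets brighter than the median probe set fell (14.3%, median -0.17), against 0 of 28 others. Where only probe sets above the 75th percentile were fitted, 5 of 12 fell. Shares among equally bright probe sets of all genes are not given here. Among the brightest probe set of each gene 7.24% fell. The median difference was -0.22 over the variant probe sets, with 25 of 29 negative, 0.00 over the replication-dependent ones and -0.01 over all probe sets. None of the 3 pseudogene probe sets passed.

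H2AZ1 encodes H2A.Z, a variant placed at promoters and enhancers. Its probe set 200853_at read 12723, 13824 and 12918 on ERG-labelled arrays, 5075, 5738, 5113 and 5265 on the ETV1 arrays and 9444, 9153 and 9502 on the control arrays. All 4 ETV1 arrays lay below every control array, and all 3 arrays labelled ERG above, so the groups did not overlap. The difference between ETV1 and control was -0.82 (SE 0.12, adjusted p = 8.7e-04), and the second H2AZ1 probe set, 213911_s_at, gave -0.77 (SE 0.12, adjusted p = 0.0012). H2AZ2 encodes the closely related second H2A.Z, and 3 of its 4 probe sets fell in ETV1 cells. The largest fall was in 212206_s_at, at 261, 327, 291 and 335 on the ETV1 arrays and 699, 553 and 454 on the control arrays, a difference of -0.86 (SE 0.17, adjusted p = 0.0081). All ETV1 readings were below all control readings there. The falls of 202487_s_at (-0.56) and 212205_at (-0.67) were less stable: leaving out control A, control B, ETV1 A, ETV1 C or ETV1 D took either below the threshold, as did leaving out ETV1 B for 212205_at, with adjusted p up to 0.12 and 0.14. The fourth, 227085_at, differed by -0.37 (SE 0.16, adjusted p = 0.18).

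H2AX encodes H2A.X, which is phosphorylated around DNA breaks and whose gene gives both stem-loop and polyadenylated mRNA. Its bright probe set 205436_s_at read 4414, 4481 and 4499 on ERG-labelled arrays, 985, 1007, 961 and 871 on the ETV1 arrays and 2075, 1910.5 and 1459.5 on the control arrays. The 3 groups did not overlap, with ETV1 lowest. The difference between ETV1 and control was -0.90 (SE 0.14, adjusted p = 0.0016). The other 3 H2AX probe sets did not pass between ETV1 and control, with differences of -0.31, -0.10 and 0.21, and 212524_x_at was below its array's median on every array. MACROH2A2 encodes a macroH2A, a large H2A variant of repressed chromatin. It read 615, 562 and 389 on ERG-labelled arrays, 429, 479.8, 403 and 465 on the ETV1 arrays and 959, 849 and 677 on the control arrays, with the arrays labelled ERG and the ETV1 arrays all below every control array. Its differences from control were -0.66 (SE 0.19, adjusted p = 0.0075) on the arrays labelled ERG, which fell short after median centring (-0.25, adjusted p = 0.25), and -0.86 (SE 0.17, adjusted p = 0.0077) for ETV1.

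H3-3A, 1 of the genes of H3.3, the H3 variant deposited outside replication, showed the largest fall of any histone probe set in both comparisons with control. Its only single-gene probe set read 179.9, 165 and 148 on ERG-labelled arrays, 678, 565, 535 and 576 on the ETV1 arrays and 1655, 1705 and 1543 on the control arrays. The 3 groups lay in separate ranges, control highest and the arrays labelled ERG lowest. The differences from control were -3.20 (SE 0.14, adjusted p = 4.2e-09) on the arrays labelled ERG and -1.45 (SE 0.13, adjusted p = 3.9e-05) on the ETV1 arrays. MACROH2A1, the other macroH2A gene, has 7 probe sets, none of which passed between ETV1 and control, with differences of -0.64 to 0.27. The lowest, 214500_at at -0.64, passed without ETV1 D (-0.77, adjusted p = 0.034), after quantile normalization (-0.71) and after median centring (-0.66), and 207168_s_at (-0.38) passed without control C (-0.47, adjusted p = 0.047). H2AJ, a mammalian H2A variant, and H1-10, the H1.X linker histone, did not pass in ETV1 cells: their differences ran from -0.13 to 0.08 over 4 H2AJ probe sets and came to -0.04 (SE 0.15, adjusted p = 0.93) for H1-10.

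**Figure D2:**
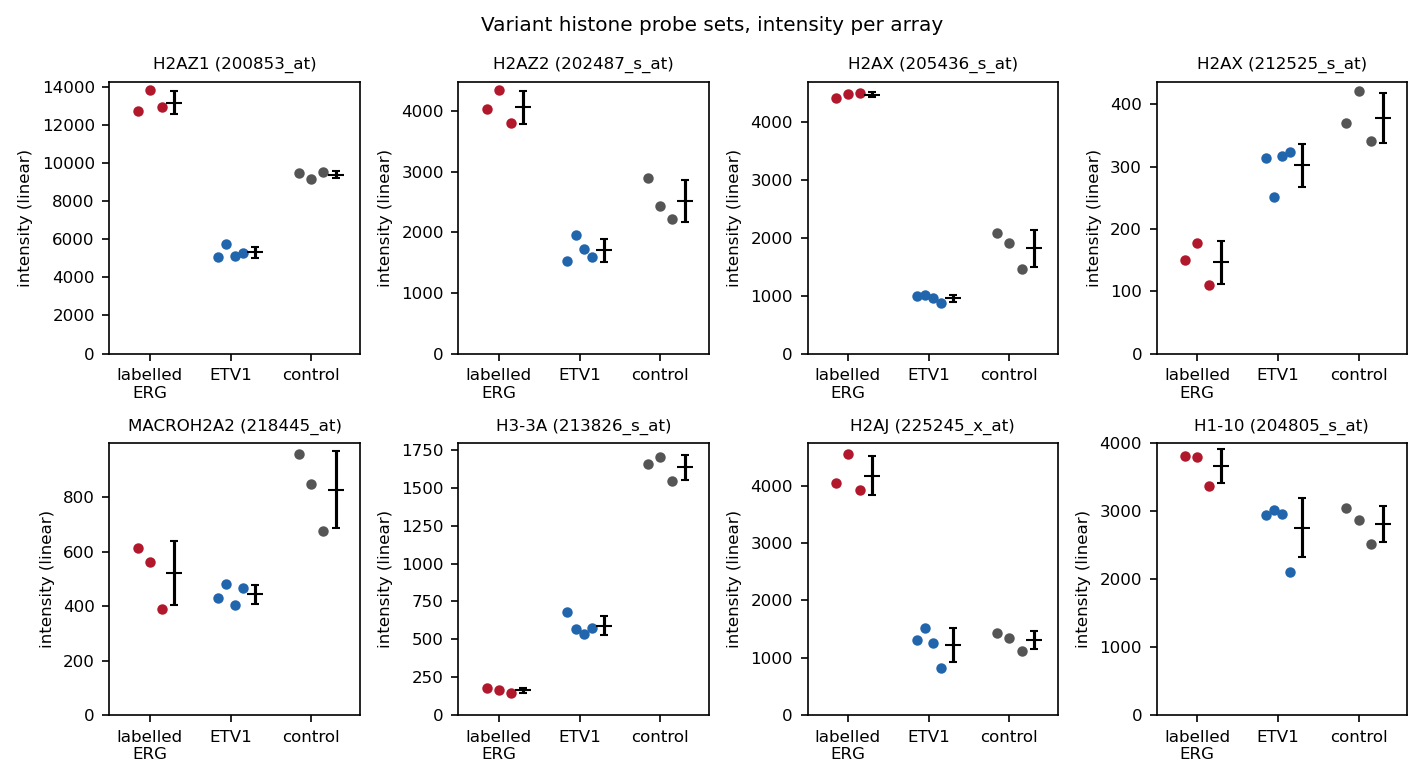
Intensity (linear scale) of 8 variant histone probe sets on the arrays labelled ERG, the ETV1 arrays and the control arrays; points are arrays, and the black marks give the mean ± SD of each group (n = 3, 4 and 3). H2AZ1 (200853_at), H2AZ2 (202487_s_at) and H2AX (205436_s_at) order the groups alike, ETV1 lowest and the arrays labelled ERG highest, whereas H2AX (212525_s_at) and H3-3A are lowest on the arrays labelled ERG.

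Among replication-dependent histones 4 probe sets passed between ETV1 and control, and each of these calls was lost when certain single arrays were left out. H2BC12, an H2B gene, read 3306, 3402 and 3774 on ERG-labelled arrays, 1797, 2187, 1894 and 1978 on the ETV1 arrays and 3349, 2933 and 2413 on the control arrays. ETV1 arrays were all below the control arrays, a difference of -0.55 (SE 0.14, adjusted p = 0.029). H2BC5, read by 209911_x_at, was also lower in ETV1 cells, with a difference of -0.55 (SE 0.15, adjusted p = 0.038), and so was H3C6, an H3 gene read by 236278_at, with -0.54 (SE 0.15, adjusted p = 0.035). H2BC11 was the only rise, at 27.3, 43.9, 32.9 and 20.6 on the ETV1 arrays and 12.9, 10.7 and 19.6 on the control arrays, a difference of 0.62 (SE 0.18, adjusted p = 0.044), and it lay above the array's median only on the 3 arrays labelled ERG. The count of falls was 0 without control A, control B, ETV1 A, ETV1 C or ETV1 D, 1 without ETV1 B and 6 without control C. The rise of H2BC11 was lost without control A, control B, ETV1 A, ETV1 B, ETV1 C, ERG A or ERG C, with adjusted p from 0.051 to 0.17. After median centring 0 replication-dependent probe sets rose and 3 fell, and after quantile normalization 3 rose and 5 fell, with H1-2 (0.55) among the rises. The other 45 replication-dependent probe sets lay between -0.52, in the H2B gene H2BC12L, and 0.50, in the linker histone gene H1-3.

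On the arrays labelled ERG histone readings were more often higher than control and less often lower than those of all probe sets. Of 81 histone probe sets 41 rose (50.6%) and 16 fell (19.8%), against a background of 31.6% higher and 32% lower over all probe sets. By class, 23 of 49 replication-dependent probe sets rose (46.9%) and 8 fell (16.3%), and 17 of 29 variant probe sets rose (58.6%) and 8 fell (27.6%). Of the 21 replication-dependent probe sets brighter than the median probe set 8 rose (38.1%) and 5 fell (23.8%), with a median of 0.36. Of the 28 others 15 rose (53.6%) and 3 fell (10.7%), with a median of 0.52. Shares among equally bright probe sets of all genes are not given here. Readings at or below 1 numbered 666 to 689 per array labelled ERG, 1523 to 1572 per ETV1 array and 1434 to 1615 per control array. The median difference was 0.42 over replication-dependent, 0.50 over variant and 0.01 over all probe sets. Scaling moved these counts, and shares over all probe sets under each scaling are not given here. Median centring, which shifts the median of all probe sets to 0.42, gave 36 replication-dependent rises and 5 falls with a median of 0.83, and 19 variant rises and 3 falls with a median of 0.91. Quantile normalization left the median of all probe sets at 0.02 and gave 26 replication-dependent rises and 7 falls with a median of 0.65, but 12 variant rises and 9 falls with a median of 0.08. The share of rises among brightest probe sets of all genes was 38.6%, and of falls 31.3%.

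In cells labelled ERG the families with the largest shares of rises were H2A, H1 and H2B. Among replication-dependent probe sets 8 of 10 H2A rose and 2 fell, 7 of 15 H2B rose and 0 fell, and 4 of 7 H1 rose and 1 fell, while 2 of 8 H3 rose and 2 fell, and 2 of 9 H4 rose and 3 fell. Family medians were 0.997 for H2A, 0.40 for H2B, 0.58 for H1, 0.25 for H3 and 0.04 for H4. Differences between families were not tested. The 20 probe sets annotated to several histone genes, of which 12 rose and 2 fell (median 1.31), are counted in no family. The families they read are not given here, so the family shares above do not cover them. The largest of their rises, 4.55 in 205967_at, exceeded that of every single-gene histone probe set. Of the 81 single-gene probe sets, that of H1-2, a linker histone found in most cell types, rose most. It read 1690.0, 1657 and 1371 on ERG-labelled arrays, 344, 397, 373 and 269 on the ETV1 arrays and 279, 264 and 185 on the control arrays. Its lowest reading on an array labelled ERG was several times its highest elsewhere, and the difference from control was 2.63 (SE 0.19, adjusted p = 1.6e-07). H2AC6, an H2A gene whose probe set matches several transcripts, read 1232, 1322 and 1433 on ERG-labelled arrays, 388, 376, 379 and 359 on the ETV1 arrays and 351.2, 298 and 220.4 on the control arrays. The 3 groups did not overlap, and the difference from control was 2.16 (SE 0.16, adjusted p = 2.6e-07). H2BC21, an H2B gene of the smaller histone cluster on chromosome 1, had 1631, 1441 and 1981 on ERG-labelled arrays, 449, 497, 490.3 and 416 on the ETV1 arrays and 459.8, 378 and 352 on the control arrays. Its difference from control was 2.04 (SE 0.16, adjusted p = 3.6e-07), and only the ETV1 and control arrays overlapped.

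H2AC25, the brightest H2A probe set, rose by 1.48 (SE 0.15, adjusted p = 3.9e-06) through 221582_at, with 2203, 2502 and 1833 on ERG-labelled arrays, 851, 894, 804 and 843 on the ETV1 arrays and 860.5, 798 and 657 on the control arrays. The ETV1 and control arrays shared a range far below the arrays labelled ERG. Further rises were in genes that lay below the array's median on every ETV1 and control array. H2BC11 read 90.8, 115 and 99.5 on the arrays labelled ERG (1.96 against control), H1-1 read 80.4, 78.1 and 54.4 (1.88) and H2AC4 read 119, 108 and 116 (1.83), with adjusted p of 1.8e-06, 1.5e-05 and 7.7e-07. On the control arrays these 3 read at most 19.6, 17.4 and 27.3. The brightest H2B probe set, H2BC12, did not pass (0.28, SE 0.15, adjusted p = 0.13). Its difference turned to -0.35 after quantile normalization and was 0.69 after median centring, both past the threshold. The brightest H4 probe set, H4C11 (214463_x_at), read 439.8, 393 and 199.5 on ERG-labelled arrays and 245, 232 and 203 on the control arrays, a difference of 0.50 (SE 0.24, adjusted p = 0.079). Array ERG C lay below the control arrays there, and the difference passed without it (0.84) and after median centring (0.91).

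The other replication-dependent rises on the arrays labelled ERG came from every family, but those of H3 came from dim probe sets alone. H2AC16, an H2A gene, read 86.1, 89.1 and 69.2 on ERG-labelled arrays, 21.7, 16.1, 11.2 and 20.0 on the ETV1 arrays and 12.9, 13.2 and 12.9 on the control arrays, a difference from control of 1.74 (SE 0.15, adjusted p = 9.4e-07). H2BC4, the H2B gene next to H2AC6, read 322, 363 and 432 on ERG-labelled arrays, 117, 132, 128 and 125 on the ETV1 arrays and 121, 98.9 and 83.5 on the control arrays, a difference from control of 1.73 (SE 0.16, adjusted p = 1.2e-06). In both the arrays labelled ERG lay far above the rest. Smaller rises were measured in the H1 genes H1-5 (0.96) and H1-3 (0.58), the H2A gene H2AC8 (0.88) and the H2B genes H2BC3 (1.13) and H2BC9 (0.83). Among H3 genes H3C2 (0.58) and H3C7 (0.51) rose, and among H4 genes H4C13 (1.18) and H4C8 by 232035_at (0.53). H3C2 read 25.2, 25.8 and 24.3 and H3C7 23.3, 24.8 and 21.6 on ERG-labelled arrays, against at most 19.7 for each on the control arrays. H1-5, H2BC3, H3C2, H3C7 and H4C13 lay above their array's median on no array. The 18 probe sets that did not pass included the bright H2BC12 and H2BC5 (209911_x_at, 0.32) and the dim H4C7 (0.11), whose ERG-labelled and control readings overlapped. The sizes of these members were listed with their values known.

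The falls on the arrays labelled ERG were in single genes of 4 families. H2AC15 read 55.1, 70.3 and 65.6 by 239041_at on ERG-labelled arrays, 229, 348, 259 and 328 on the ETV1 arrays and 287, 303 and 395 on the control arrays. The arrays labelled ERG lay far below the others, with a difference from control of -2.10 (SE 0.18, adjusted p = 8.3e-07). H4C5, an H4 gene, read 29.4, 27.6 and 28.9 on ERG-labelled arrays, 100.1, 162, 121 and 133.1 on the ETV1 arrays and 113, 132 and 201 on the control arrays, a difference from control of -1.85 (SE 0.20, adjusted p = 5.4e-06). H1-6, the H1t linker histone of the testis, read by 207982_at 66.9, 62.0 and 44.6 on ERG-labelled arrays, 216, 217, 208 and 251 on the ETV1 arrays and 218, 235 and 265 on the control arrays, a difference from control of -1.80 (SE 0.15, adjusted p = 7.6e-07). In all 3 the ETV1 and control arrays overlapped and the arrays labelled ERG did not reach them. H3C6 by 214616_at (-1.44), H4C4 (-1.23), H2AC25 by 231681_x_at (-0.71), H3C1 (-0.68) and H4C1 (-0.61) made up the rest of the 8 falls. The other probe sets of H3C6 (236278_at, 0.36) and H1-6 (1553568_a_at, -0.14) did not pass. H2AC25 by 231681_x_at did not pass after quantile normalization (-0.31) or median centring (-0.30).

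**Figure D3:**
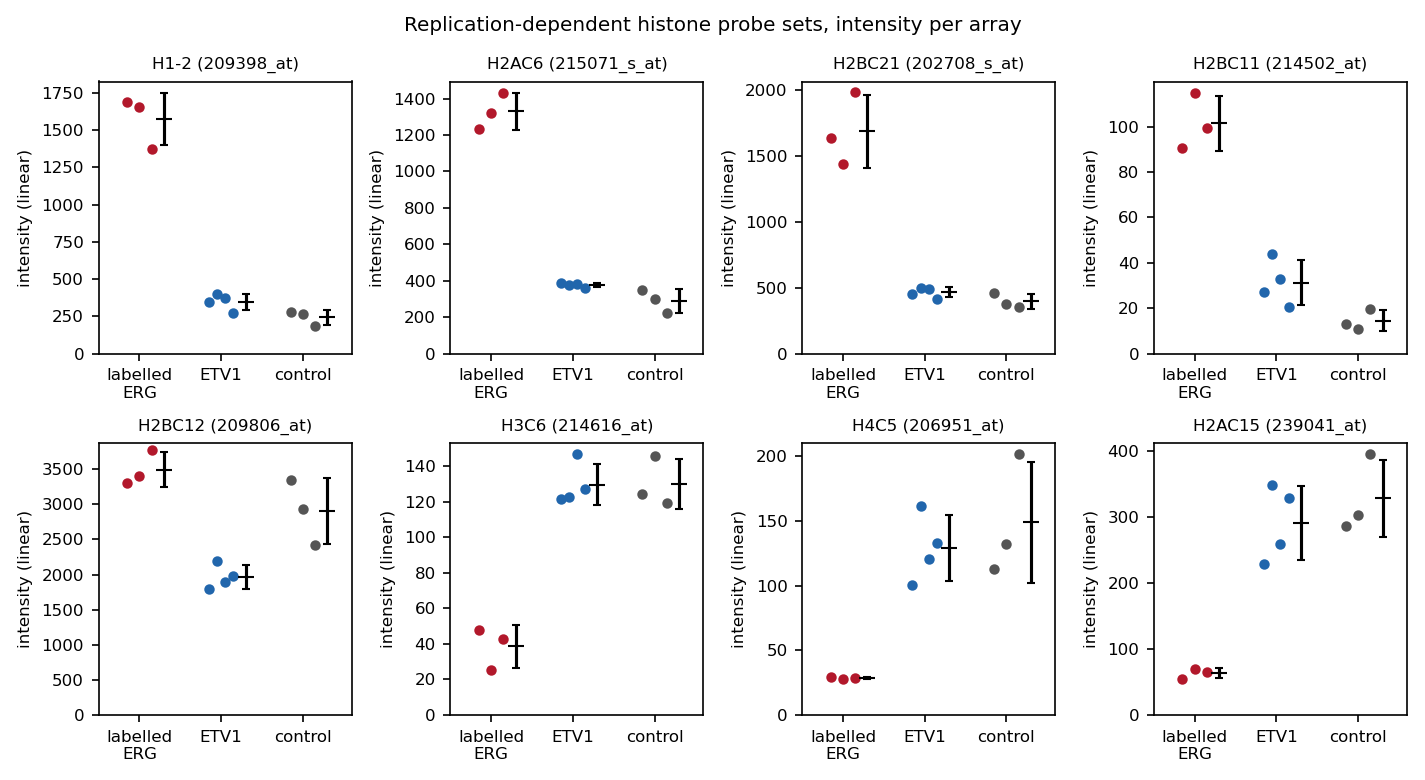
Intensity (linear scale) of 8 replication-dependent histone probe sets on the arrays labelled ERG, the ETV1 arrays and the control arrays; points are arrays, and the black marks give the mean ± SD of each group (n = 3, 4 and 3). H1-2, H2AC6, H2BC21 and H2BC11 are highest on the arrays labelled ERG, whereas H3C6 (214616_at), H4C5 and H2AC15 (239041_at) are lowest there.

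Among variant histones H2AJ rose on the arrays labelled ERG by all of its 4 probe sets. The bright 225245_x_at read 4052, 4556 and 3918 on ERG-labelled arrays, 1305, 1524, 1263 and 813 on the ETV1 arrays and 1434, 1349.6 and 1125 on the control arrays. ETV1 and control arrays overlapped far below the arrays labelled ERG, and the difference from control was 1.67 (SE 0.21, adjusted p = 1.4e-05). The others differed from control by 1.62, 2.05 and 1.19, and after quantile normalization and median centring all 4 still passed. H2AZ1 rose by 0.49 (SE 0.12, adjusted p = 0.0041) and 0.53 (SE 0.12, adjusted p = 0.0023), but after quantile normalization these differences were 0.02 and 0.04 and did not pass. H2AZ2 rose by 202487_s_at (0.70) and 227085_at (0.93). The first of these was 0.08 after quantile normalization and did not pass. Its other probe sets differed by 0.28 and -0.33 and did not pass. The first of them passed without ERG B (0.45) and after median centring (0.69), and 212206_s_at fell without control C (-0.48) and after quantile normalization (-0.52). H1-10 read 3815, 3798 and 3374 on ERG-labelled arrays, 2947, 3021, 2954 and 2108 on the ETV1 arrays and 3040.5, 2876 and 2520.1 on the control arrays. Its difference from control was 0.38 (SE 0.16, adjusted p = 0.058), which passed without ETV1 D (adjusted p = 0.028) and after median centring (0.79).

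Several histone genes, like many other genes, had probe sets that went opposite ways on the arrays labelled ERG. Of 12 histone symbols with at least 2 probe sets, 5 had probe sets that passed in both directions against control, beside 34.4% of all 10523 such genes, and 6 did so against ETV1, beside 36.2%. Between ETV1 and control 0 of 12 did, beside 0.304%. H2AX is an example. Its probe set 205436_s_at rose by 1.31 (SE 0.15, adjusted p = 8.4e-06), while 212525_s_at read 150.2, 178 and 110.5 on ERG-labelled arrays, 315, 251, 317 and 324 on the ETV1 arrays and 370.5, 421 and 341 on the control arrays, a fall, with a difference from control of -1.30 (SE 0.18, adjusted p = 3.3e-05). The 3 groups did not overlap on it, in an order unlike that of 205436_s_at. A second H2AX probe set fell (-0.69, but -0.28 and not passed after median centring), and the dim 212524_x_at rose (0.89). MACROH2A1 split likewise, with 4 of 7 probe sets higher and 3 lower. Its bright 207168_s_at read 8437, 8538 and 9408 on ERG-labelled arrays, 3972, 4795, 4358 and 4295 on the ETV1 arrays and 6166, 5861 and 4974 on the control arrays, a rise against control of 0.64 (SE 0.14, adjusted p = 0.0015). By contrast 226840_at fell, with 295, 170.3 and 461 on ERG-labelled arrays, 835, 863, 834 and 771 on the ETV1 arrays and 923, 913 and 815 on the control arrays (-1.57). After quantile normalization 207168_s_at (0.09) and 214501_s_at (0.25) did not pass, and after median centring 214500_at (-0.16) and 229593_at (-0.12) did not. The call of 1558780_a_at (0.48) was lost without control A, control C or ERG C, and that of 214500_at (-0.57) without control A, control B or ERG A. H2AC15 rose by 214644_at (0.98) and fell by 239041_at, and H2AC25 rose by 221582_at and fell by 231681_x_at. H1-7, a linker histone of male germ cells, rose by 238373_at (2.04) and fell by 238374_at (-0.73); its values and those of 214644_at were singled out after they were seen. For genes with such splits the direction depends on the probe set read.

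**Figure D4:**
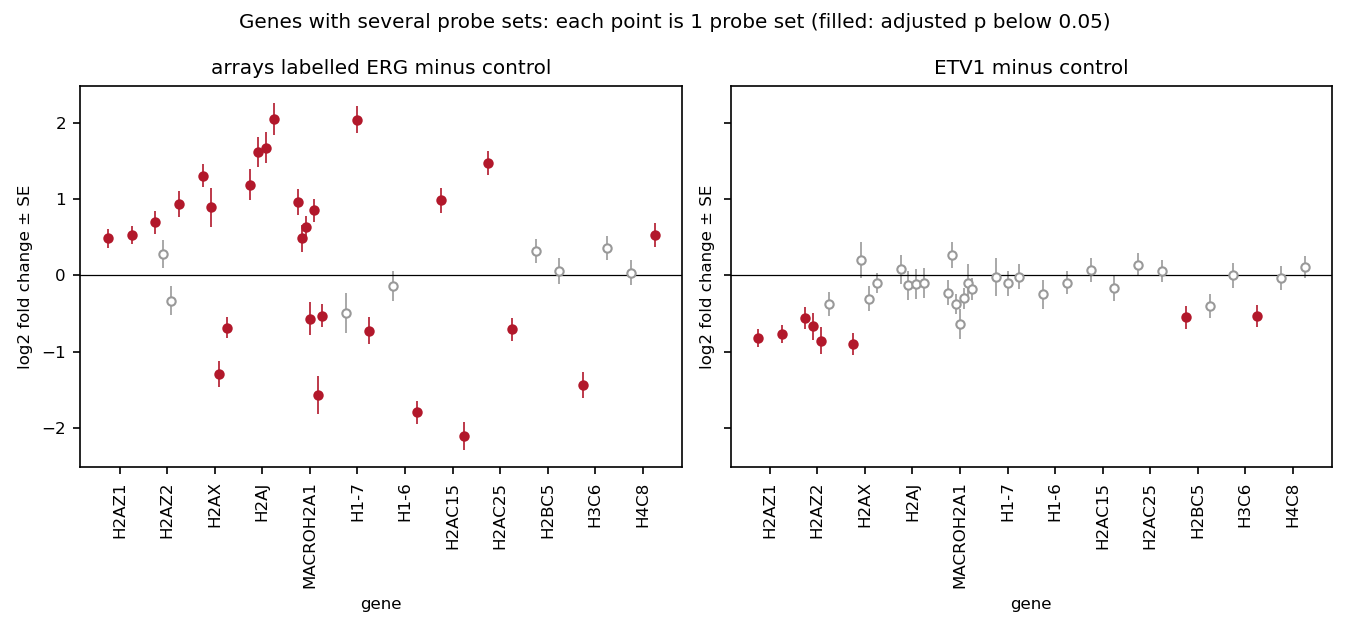
Log2 fold change ± SE of each probe set (1 point each, filled where the adjusted p is below 0.05) of the 12 histone genes with several probe sets, on the left for the arrays labelled ERG against control and on the right for ETV1 against control. On the left MACROH2A1, H1-7, H2AX, H2AC15 and H2AC25 hold filled points on both sides of 0, and on the right no gene does.

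In the direct comparison 47 of 81 histone probe sets were higher (58.0%) and 14 lower (17.3%) on the arrays labelled ERG than on the ETV1 arrays, against backgrounds of 33.8% and 33.7%. This comparison uses the same arrays as those with control. Of 49 replication-dependent probe sets 28 were higher and 8 lower (median 0.49), and of 29 variant probe sets 18 were higher and 6 lower (median 0.74, against 0.01 over all probe sets). Median centring, which puts the median of all probe sets at 0.44 here, gave 22 variant probe sets higher and 3 lower with a median of 1.17, and quantile normalization 18 and 7 with a median of 0.40, at 0.02 over all probe sets. Of 15 H2B probe sets 12 were higher and 0 lower, and of 10 H2A probe sets 8 were higher and 2 lower. Both H2AZ1 probe sets were higher by 1.31 and 1.30, all 4 H2AZ2 probe sets by 0.52 to 1.31, and H2AX by 205436_s_at by 2.21 (SE 0.14, adjusted p = 4.6e-08). Of the other H2AX probe sets 212525_s_at (-0.99) and 213344_s_at (-0.59) were lower and the dim 212524_x_at was higher (0.69). The 4 H2AZ2 differences remained past the threshold under both scalings, except that 212206_s_at was lost without ERG C (0.40). H2BC12 was higher by 0.83 (SE 0.14, adjusted p = 2.0e-04), though by 0.03 after quantile normalization. H1-2 (2.14), H1-1 (1.87), H2BC21 (1.82), H2AC6 (1.78), H2AC16 (1.56) and H2BC4 (1.44) were the largest replication-dependent rises. The largest falls were in H2AC15 by 239041_at (-1.93), H1-6 by 207982_at (-1.70), H4C5 (-1.68), H3C6 by 214616_at (-1.44), H4C4 (-1.18) and H3C1 (-0.93). The other probe sets of H2AC15 (214644_at, 0.91) and H3C6 (236278_at, 0.90) were higher, and that of H1-6 (1553568_a_at, 0.11) did not pass. H3-3A was lower, with a difference of -1.74 (SE 0.13, adjusted p = 1.7e-07). H1-10 was higher by 0.42, but the difference was -0.38 after quantile normalization, and the call was lost without ETV1 D, ERG A or ERG B. The rise of H4C11 (0.71) was lost without ERG A or ERG B. MACROH2A1 by 229593_at differed by -0.35, a call lost without any 1 of 8 arrays (control A and B, the 4 ETV1 arrays, ERG A and B), and median centring turned it to 0.08.

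Replication-dependent H2A and H2B genes often lie in pairs transcribed away from a shared promoter. Among the members, 4 such pairs had starts within 1000 bases of each other: H2AC6 with H2BC4 (246 bases apart), H2AC14 with H2BC14 (245), H2AC15 with H2BC15 (194) and H2AC17 with H2BC17 (240). On the arrays labelled ERG both genes rose against control in 3 of the 4 pairs: H2AC6 by 2.16 with H2BC4 by 1.73, H2AC14 by 0.64 with H2BC14 by 1.27, and H2AC17 by 1.01 with H2BC17 by 1.12. In the fourth, H2BC15 differed by 0.11 and did not pass, and the 2 H2AC15 probe sets passed in opposite directions. None of these genes passed between ETV1 and control. Split by the octamer, 16 H2A and H2B probe sets of 16 genes have it in the promoter. The 250-base windows of paired genes largely overlap, so the same octamer can count for both, and the 16 are not all separate promoters. On the arrays labelled ERG 13 of these 16 rose and 0 fell, with a median of 1.13. The 8 probe sets without it come from 5 genes, and 2 rose and 2 fell, with a median of 0.08. These rises and falls were the opposite calls of H2AC15 and H2AC25, each read by 2 probe sets. Over all probe sets 31.6% rose and 32% fell. Between ETV1 and control 1 of 16 rose and 1 fell with the octamer, and 0 of 8 rose and 1 fell without it. The split was made with the values known and was not tested. H2BC12, whose promoter is shown above with its octamer, was among those that did not rise.

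Genes that make or handle histones were read from the brightest probe set of each of 41 genes: 14 act in expression and 3′ processing of histone mRNA, and 27 are histone chaperones, remodellers and related factors. In ETV1 cells 14 of 41 fell and 0 rose (median -0.27), against 7.24% lower and 4.77% higher among the brightest probe sets of all genes. By role, 4 of 14 processing and 10 of 27 chaperone genes fell. SLBP, which binds the histone stem loop, read 2831, 2891 and 2817 on ERG-labelled arrays, 1346, 1487, 1384 and 1622 on the ETV1 arrays and 2445, 2072 and 1707 on the control arrays. The ETV1 arrays were lowest and the arrays labelled ERG highest, without overlap. Its fall in ETV1 cells, -0.49 (SE 0.14, adjusted p = 0.049), lay at the threshold and was lost after quantile normalization (-0.36) and without any 1 of 8 arrays (control A and B, the 4 ETV1 arrays, ERG A and B). Its rise on the arrays labelled ERG, 0.47 (SE 0.15, adjusted p = 0.017), was lost without control C (0.34) and turned to -0.15 after quantile normalization.

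CASP8AP2, a factor of the histone locus body, fell in ETV1 cells to 358, 360.5, 353 and 357, against 826, 799.8 and 598 on the control arrays. The ETV1 readings were nearly equal and all below control, a difference of -1.01 (SE 0.16, adjusted p = 0.002). NASP, the chaperone that holds the pool of soluble H3 and H4, read 1789.9, 1741 and 2027 on ERG-labelled arrays, 853, 1013, 892 and 1171 on the ETV1 arrays and 2742, 2654 and 2094 on the control arrays, with a difference between ETV1 and control of -1.33 (SE 0.15, adjusted p = 2.0e-04). ETV1 arrays were lowest throughout. CHAF1A, the large subunit of CAF-1, which deposits H3 and H4 behind the replication fork, was lower in ETV1 cells, with a difference of -1.10 (SE 0.14, adjusted p = 3.3e-04), and so was ASF1B, an H3 and H4 chaperone of dividing cells, with -0.87 (SE 0.15, adjusted p = 0.0028). CHAF1B, the next CAF-1 subunit, differed by -0.40 (SE 0.14, adjusted p = 0.088) and passed without control C (-0.53) and after quantile normalization (-0.38). ASF1A (-0.17), NPAT (-0.17), DAXX (-0.33), HJURP (-0.16), HIRA (0.45) and CENPA (0.25) did not pass, though HIRA did without ERG C. Even the brightest HIRA probe set was dim and lay above its array's median on no array. Of the 4 CHAF1A and 3 NASP probe sets 3 and 2 fell, and the others differed by 0.01 and 0.27. Genes of DNA replication, 26 in all, moved beside these: 17 fell in ETV1 cells and 0 rose, with a median of -0.85, beside 7.24% lower over all genes, and their part in the histone differences was not tested.

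On the arrays labelled ERG 15 of the 41 genes rose (36.6%) and 13 fell (31.7%, median 0.04), against 38.6% and 31.3% over all genes, so the list was not set apart by its counts. Median centring gave 22 rises and 12 falls, and quantile normalization 10 rises and 20 falls. Median centring shifts the median of all probe sets to 0.42, and shares over all genes under either scaling are not given here. CENPA, the H3 variant of centromeres, read 804, 969 and 845 on ERG-labelled arrays, 197, 139, 189.9 and 164 on the ETV1 arrays and 158, 163 and 109.9 on the control arrays. The arrays labelled ERG were far above the others, which overlapped, and the rise against control was 2.49 (SE 0.18, adjusted p = 1.6e-07). HJURP, the chaperone that loads CENPA, rose by 1.53 (SE 0.14, adjusted p = 1.1e-06), and ASF1A by 0.99 (SE 0.17, adjusted p = 2.3e-04). NPAT, the activator of replication-dependent histone genes, read 361, 355 and 517 on ERG-labelled arrays, 736, 635, 657 and 687 on the ETV1 arrays and 858, 755 and 687 on the control arrays. It was lower on the arrays labelled ERG without overlap, with a difference from control of -0.89 (SE 0.17, adjusted p = 4.2e-04), and all 3 of its probe sets fell. NASP fell by its brightest probe set (difference -0.42), a call lost after median centring (-0.01) and without control A, control B, ETV1 B, ERG A or ERG B. Of its other 2 probe sets 242918_at rose, by 1.66. CHAF1A differed by 0.32 and passed without control A (0.44) and after median centring (0.73), although its 3 other probe sets fell. CHAF1B did not pass, at -0.30, but did without control C (-0.42), and neither did ASF1B, CASP8AP2, HIRA and DAXX, at -0.27, -0.12, 0.10 and 0.22. These are the brightest probe sets, and the second probe set of 3 of these genes passed: it was lower for DAXX (-1.01) and CASP8AP2 (-0.92) and higher for HIRA (0.84). After quantile normalization CHAF1B, ASF1B and CASP8AP2 fell (-0.61, -0.56 and -0.46) and HIRA rose (0.41), and after median centring HIRA (0.51) and DAXX (0.63) rose. Against ETV1 cells 22 of 41 genes were higher on the arrays labelled ERG and 12 lower (median 0.51), beside 41.2% and 32.3% over all genes. These counts were 29 and 7 after median centring and 17 and 12 after quantile normalization. Among replication genes 12 of 26 rose and 4 fell against control, and 23 were higher and 2 lower against ETV1.

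**Figure D5:**
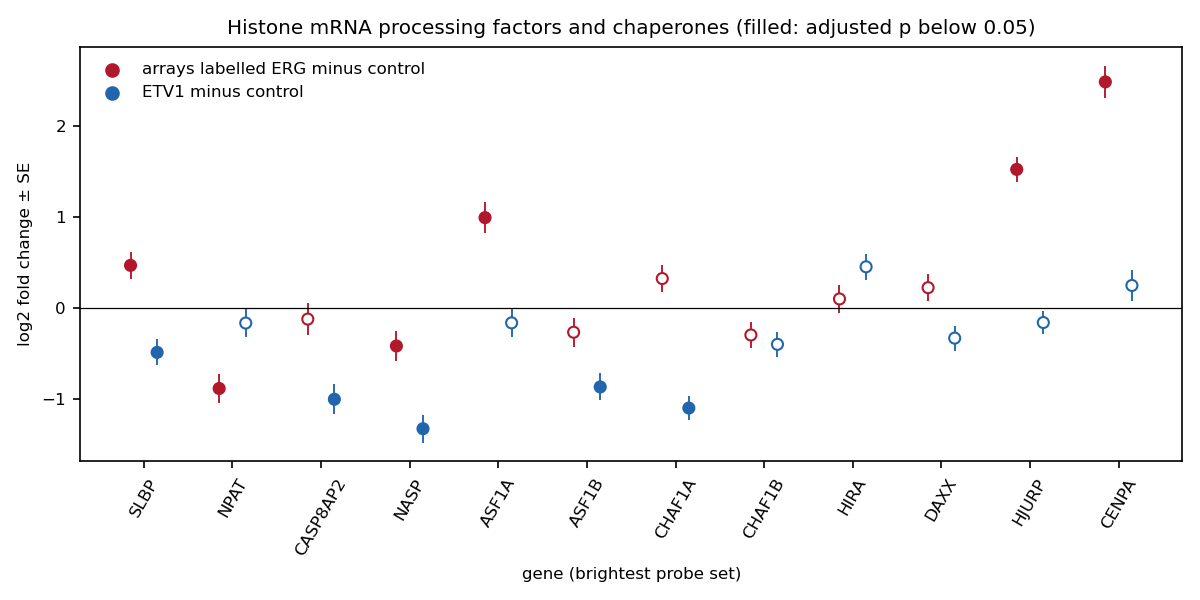
Log2 fold change ± SE of 12 genes of histone mRNA processing and histone chaperoning, each by its brightest probe set, for the arrays labelled ERG against control (red, left of each pair) and ETV1 against control (blue, right); filled points have an adjusted p below 0.05. NASP, CHAF1A, CASP8AP2 and ASF1B are filled below 0 for ETV1, and CENPA and HJURP are the highest points for the arrays labelled ERG.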

How the data were processed

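Total RNA was made into biotinylated cRNA and hybridised to HG-U133 Plus 2.0 arrays, per the labels' protocols. The authors deposited 1 linear intensity per probe set and array; the summary of probes and the normalization are not given in the sources used here. All 54613 probe sets other than 62 array controls were fitted as log2(intensity + 16) with limma 3.58.1 (R 4.3.3; lmFit and eBayes, 3 groups, 7 residual degrees of freedom, no filter on low values), two-sided, with Benjamini-Hochberg adjustment at 0.05. The procedure was tested on simulated data. Genes came from the platform annotation, with 41091 probe sets naming 1 gene, 1801 several and 11721 none. Probe sets without a single gene were not analysed among the members, and not every variant gene is reported here.

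Named were the variant genes H1-10, H2AX, H2AZ1, H2AZ2, H2AJ, MACROH2A1, MACROH2A2 and H3-3A, up to 6 replication-dependent probe sets with the largest rise and 6 with the largest fall per comparison (passed, groups not overlapping), the brightest probe set of each family, and 12 factors of histone supply, each by its brightest probe set. Other names were chosen after their values were seen, or by position for divergent pairs. The members, gene lists and tests were chosen with earlier results of these data known. The comparisons share arrays, so they are given side by side. Quantile normalization, median centring, 2 filters on low values, pseudocounts of 1 and 64, 2 ways to read 1 value per gene, probe sets without a suffix, 2 variance models, fits of only 2 groups, a replicate block, a threshold of 0.01 and omission of each array were tried. Promoter motifs were counted with Python 3.11.15. The number of arrays limits precision. The LNCaP and VCaP experiments of the series title were not analysed here.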

Additional observations from a re-analysis of the deposited data

Results flagged for a closer look

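In 3 of the 56 tested groups of 4 ETV1 arrays, 1 per named probe set, the highest or lowest array stood apart from the other 3 by more than Dixon's critical ratio of 0.829, which chance alone exceeds in about 1 of 20 groups. H1-10 (204805_s_at) read 2108 on array ETV1 D, below 2947 to 3021 on the others. H2AX (212525_s_at) read 251 on array ETV1 B, below 315 to 324 on the others. ASF1B (218115_at) read 397 on array ETV1 C, above 358 to 363 on the others.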

How the results depend on the processing

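Counts of calls moved with several choices, and calls that depend on fewer tested probe sets follow from the setting's construction. Otherwise the cause was not tested. Shares over all probe sets under these settings are not given here. In ETV1 cells against control, replication-dependent rises (1 as reported) came to 10 with array weights, 3 after quantile normalization, 2 with the brightest probe set or the mean of each gene, the median filter, or a trended robust variance, and 0 after median centring, with a pseudocount of 1, at a threshold of 0.01 or without suffixed probe sets. Replication-dependent falls (3) came to 8 with array weights, 5 after quantile normalization, with either filter (of 12 above the 75th percentile) or a trended robust variance, 1 with a pseudocount of 1, and 0 at 0.01. Variant falls (8) came to 15 with array weights, 5 of 11 with 1 value per gene by either way and 3 of 14 without suffixed probe sets. Supply genes (0 rises, 14 falls) gave 3 rises and 22 falls with array weights, 2 rises when fitted without the arrays labelled ERG, 1 rise after quantile normalization or among the brightest probe sets of single genes, and 6 of 33 falls without suffixed probe sets. On the arrays labelled ERG against control, replication-dependent rises and falls (23 and 8 of 49) were 36 and 5 after median centring and 7 and 1 of the 12 above the 75th percentile. Variant rises and falls (17 and 8 of 29) were 8 and 3 of 11 genes with the brightest probe set, 9 and 2 with the mean of each gene, 7 and 5 of 14 without suffixed probe sets, 10 rises of 18 above the 75th percentile, and 3 falls after median centring. Supply genes gave 20 falls after quantile normalization, against 13. Between the arrays labelled ERG and ETV1, replication-dependent calls (28 higher, 8 lower of 49) were 11 and 1 of the 12 above the 75th percentile. Variant calls (18 and 6 of 29) were 7 and 2 of 11 genes with the brightest probe set, 8 and 1 with the mean of each gene, 7 and 3 of 14 without suffixed probe sets, and 3 lower after median centring. Supply genes gave 7 lower after median centring, against 12. The median of all probe sets moved to 0.42 and 0.44 under median centring on the arrays labelled ERG against control and ETV1, and to -0.04 for ETV1 against control. Directions turned in 6 named cases: after quantile normalization H2BC12 (-0.35) and SLBP (-0.15) against control, and H1-10 (-0.38) and HIRA (0.0053, against -0.35) between the arrays labelled ERG and ETV1, and after median centring MACROH2A1 by 229593_at (0.075) and HIRA (0.076), both against -0.35, in that last comparison. Leaving out each array in turn gave, for ETV1 against control, 0 to 1 replication-dependent rises, 0 to 6 falls, 6 to 9 variant falls, and 0 to 1 rises and 10 to 16 falls of supply genes. The same omissions gave 22 to 24 rises and 6 to 9 falls of replication-dependent probe sets on the arrays labelled ERG against control, and 14 to 18 and 7 to 9 of variant ones. The falls of H2AZ1 (both probe sets), H2AX by 205436_s_at, H2AZ2 by 212206_s_at, MACROH2A2 and H3-3A in ETV1 cells passed under every alternative that fitted them. The replicate letters did not pair the arrays: deviations from group means correlated at -0.10 to 0.02 in 9 same-letter pairs and -0.11 to 0.09 in 24 others. With a replicate block, replication-dependent falls in ETV1 cells numbered 0, variant falls 7 and supply falls 9, and the arrays labelled ERG gave 23 rises and 8 falls against control. Dim probe sets limit what can be said of 22 histone probe sets that lay above their array's median on no array.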

Other observations

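A further 20 probe sets are annotated to several histone genes at once and so name no gene. On the arrays labelled ERG 12 of them were higher than control and 2 lower, beside 31.6% and 32% over all probe sets, with a median of 1.31, and in ETV1 cells 1 was higher and 1 lower, beside 4.58% and 4.93%. The largest difference was in 205967_at, which read 11980.3, 13293 and 10394 on ERG-labelled arrays, 330.0, 398, 393 and 285 on the ETV1 arrays and 604, 470.0 and 413 on the control arrays, a difference of 4.55 against control (SE 0.18, limma adjusted p = 2.0e-09). Its readings on the arrays labelled ERG were far above all others, which did not overlap between ETV1 and control.

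Among germ-cell histones and pseudogenes, probe set 238373_at of H1-7 read 69.7, 39.6 and 76.4 on ERG-labelled arrays, at most 1.67 on the ETV1 arrays and at most 3.67 on the control arrays. H2AC5P, a histone pseudogene read by 234960_at, had 94.5, 81.8 and 82.7 on ERG-labelled arrays, 40.7, 27.0, 36.6 and 38.3 on the ETV1 arrays and 29.7, 25.3 and 34.7 on the control arrays, a rise of 1.16 against control (SE 0.15, limma adjusted p = 2.1e-05). H2BC1, an H2B gene of the testis, and the pseudogenes H1-9P and H4C10P passed in no comparison, with differences from control on the arrays labelled ERG of 0.08, -0.37 and 0.13.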
